A study of Mus musculus with 8 samples.

Results

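The response of wild-type mouse CD4 T cells to transforming growth factor beta (TGF-b) was read from 2 arrays of the 8 in the study, 1 from cells cultured with TGF-b and 1 from cells cultured without it. Both were chosen by their labels, so no measured value entered the choice. The study asked how CD4 T cells that lack Smad2 or Smad3 respond to TGF-b, and it held 1 Affymetrix array for each of 4 genotypes with and without the cytokine. All mice were labelled C57BL/6J. Beside wild type (WT) these were a Smad2 deletion made only in T cells (Smad2KO, Smad2del/del), a Smad3 knockout (Smad3KO, Smad3-/-) and Smad2del/del cells with 1 intact Smad3 allele (Smad2KO_Smad3het). The last genotype was not used here except in one alternative preparation. Smad2KO and Smad3KO stand below for the arrays so labelled, because the probe sets of the targeted genes did not read low on them. The Smad2 probe set read 1155 without and 1046 with TGF-b on the Smad2KO arrays, against 1068 and 1031 in WT. The brightest Smad3 probe set read 614 and 730.2 on the Smad3KO arrays, against 149 and 548 in WT, and another read 286 and 198 against 75.4 and 167. Only the dimmest Smad3 probe set was lower with TGF-b on the Smad3KO array, at 48.7 against 103. Whether these probe sets lie in the deleted parts was not tested, so they neither check the labels nor show a loss of either Smad.

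Naive T cells (CD4+CD25-CD44loCD62Lhi) were sorted from spleens at a purity above 98%. Every culture, with or without TGF-b, received plate-bound antibody to CD3e and soluble antibody to CD28 at 1 ug/ml each and recombinant IL-2 at 10 ng/ml. IL-4 and IFN-g were neutralized in every culture with 10 ug/ml of antibody to each. TGF-b was added at 2 ng/ml, and RNA was taken after 24 h. The control is therefore an activated T cell in IL-2, not a resting one. The labels give 1 culture per group and do not say how many mice contributed to it. A WT ratio of 2 arrays has no replicate check, so no p-value is given for it. Values of bulk RNA also cannot tell fewer cells of a kind from less RNA per cell.

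TGF-b binds a pair of receptor kinases, which phosphorylate Smad2 and Smad3. These join Smad4, enter the nucleus and bind DNA with other factors. In activated CD4 T cells TGF-b is known to restrain growth factor production and effector programmes, to induce Foxp3 in the presence of IL-2, and to induce a Th17 programme when inflammatory cytokines such as IL-6 are added. The pathway also induces its own inhibitors, among them Smad7, Skil and Pmepa1.

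Signals are probe set intensities scaled so that the arrays share a 2% trimmed mean. A floor was set at 32.5, the median scaled signal of the 6 WT, Smad2KO and Smad3KO arrays. Lower signals were set to the floor before a log2 ratio was taken, and a fold against such a signal is a lower bound. A gene was called bright if the brighter WT array read 65.0 or more, which is 2 times the floor, and a gene with several probe sets was represented by the one whose mean over the 6 arrays was highest. The cells carried the markers of their label. Cd3e, Cd3g, Cd4 and Cd28 were bright on both WT arrays, with log2 ratios between -0.28 and 0.15. Of markers of other cells, 0 of 5 B cell, 0 of 3 NK cell, 0 of 2 erythroid and 0 of 1 gamma-delta T cell genes were bright. Of 7 myeloid markers only Csf1r was bright, at 122 without and 66.3 with TGF-b, and the summed signal of the list was 223 and 138. Cd8a read 94.0 and 37.7 (log2 ratio -1.32) and Cd8b1 66.8 and 70.5. The 2 arrays differed in ribosomal RNA: the 3 probe sets for 18S rRNA read 2614 to 4020 without TGF-b and 70.7 to 184 with it. The ratios of 3' to 5' probe sets, a sign of RNA integrity, were alike, at 1.12 and 1.19 for Actb and 0.835 and 0.808 for Gapdh. The part of rRNA or of Cd8a-positive cells in the results below was not tested.

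Most genes differed by less than 2-fold between the WT arrays. Of 9208 bright genes, 417 (4.53%) reached 2-fold higher signals with TGF-b and 266 (2.89%) had a 2-fold lower signal, while the median log2 ratio of all bright genes was -0.01. The higher side reached further. At 8-fold or more there were 25 higher genes and 2 lower ones, at 4 to 8-fold 60 and 23, and at 2 to 4-fold 332 and 241. The robust SD of the log2 ratio, from the median absolute deviation over 8534 genes bright on both arrays, was 0.33. It fell from 0.44 in the dimmest to 0.26 in the brightest of 5 equal groups of these genes, so a 2-fold ratio stands further out from the bulk at high signal. In 97 of the 417 rises and 68 of the 266 falls the dimmer array was under the floor. The counts depend on the floor: a floor at the 25th percentile of signals gave 1693 and 1617 genes, and one at the 75th percentile, called the higher floor below, 152 and 69. The check of named genes covered the 25 largest rises and falls and the list members at 2-fold, which made 135 genes. Other genes named below were not part of it. Of the 135, 79 were still at 2-fold with the higher floor. Those that were not included Foxp3, Treml2, Anxa3, Fbxo2 and Cttn among the 25 largest rises, and Lypd6b, Ces5a, Chst15, Ms4a4c, Ifih1, Cth, Bspry, Gbp8, Pgap1 and 5430427O19Rik among the falls. With the requirement that both arrays read 2 times the floor, 227 and 124 genes were left.

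**Figure D1:**
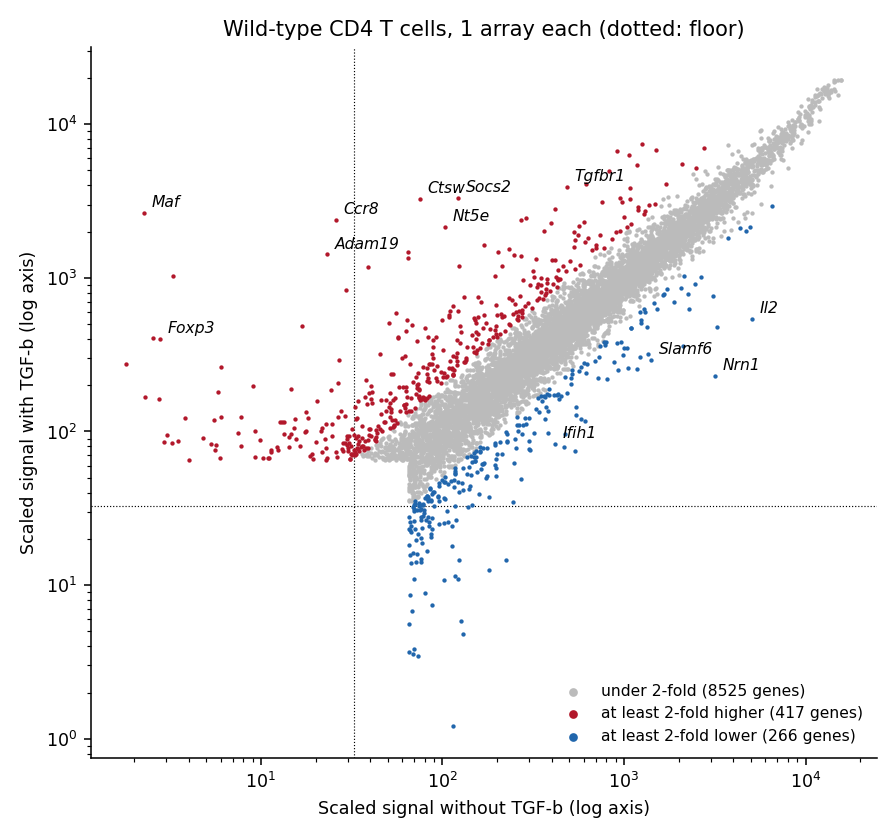
Scaled signal of each of the 9208 bright genes on the WT array without TGF-b (horizontal, log axis) and with TGF-b (vertical, log axis), 1 point per gene, with dotted lines at the floor of 32.5. The 417 red genes were 2-fold or more higher with TGF-b and the 266 blue genes 2-fold or more lower, and Maf, Ccr8 and Foxp3 were under the floor without TGF-b.

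The largest rises were led by Maf and Ccr8. Maf encodes a basic leucine zipper factor that controls cytokine genes of helper T cells, and its signal was 2.28 without TGF-b and 2638 with it, which is at least 81.1-fold. Ccr8, a chemokine receptor of regulatory and Th2 cells, read 25.8 and 2384, at least 73.3-fold. Adam19, a membrane metalloprotease, read 23.2 and 1421, at least 43.7-fold. All 3 were under the floor on the control array, where neighbouring values have no order. Ctsw, a cysteine protease known from cytotoxic lymphocytes, went from 74.9 to 3269, 43.6-fold. Emp1, a tetraspan membrane protein, read 3.27 and 1021, at least 31.4-fold. Ctla2a and Ctla2b, which encode inhibitors of cathepsin-like proteases, read 39.0 and 1178 (30.2-fold) and 29.4 and 827 (at least 25.4-fold). They are close copies of each other and may share signal, which was not tested. Socs2, a feedback inhibitor of cytokine receptors, went from 122 to 3323, 27.2-fold. Aqp3, a channel for water and glycerol, went from 64.8 to 1469, 22.7-fold.

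The next rises included enzymes, receptors and regulators. Nt5e encodes CD73, which makes adenosine outside the cell, and went from 103 to 2154, 21.0-fold. Foxp3, which specifies regulatory T cells, read 2.77 and 402, at least 12.4-fold. Ccr6, a chemokine receptor of Th17 and regulatory cells, read 55.5 and 589, 10.6-fold. The epidermal growth factor family ligand Hbegf was 10.1-fold higher, the oxygen-dependent prolyl hydroxylase Egln3 9.63-fold and the TGF-b feedback gene Pmepa1 9.60-fold. Tbc1d4, a regulator of glucose transporter traffic, was 8.57-fold higher and Tgfbr1, the type I TGF-b receptor, 8.07-fold. Kctd14 was 20.7-fold higher and Myo6, an actin motor, at least 14.9-fold. The other 6 of the 25 largest rises were Treml2, Anxa3, Akr1c18, Fbxo2, Smim3 and Cttn, with log2 ratios from 3.00 to 3.64. In 11 of the 25 the control signal was under the floor, so these have no true order among themselves.

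**Figure D2:**
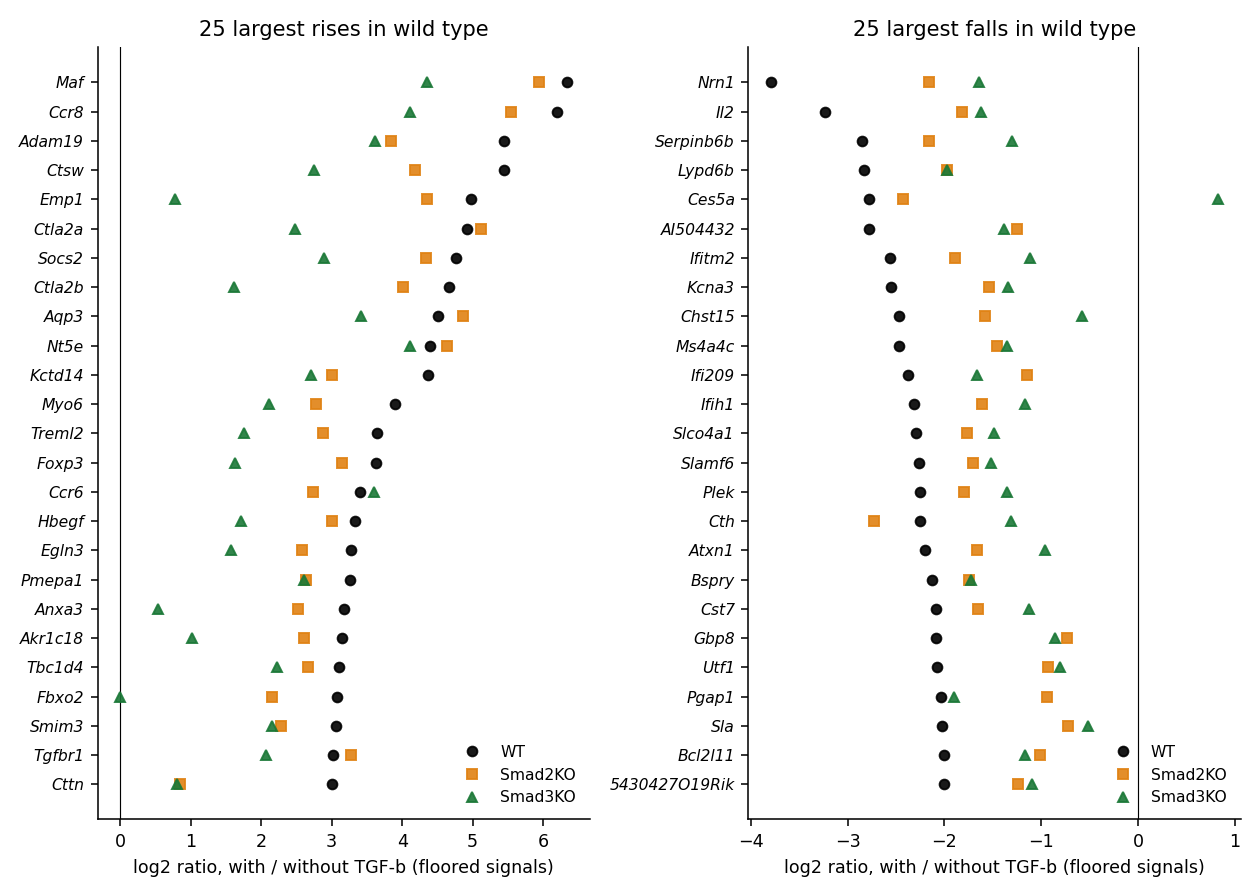
Log2 ratio with over without TGF-b (horizontal) of the 25 largest rises (left) and the 25 largest falls (right) in WT, 1 gene per line, for WT (circles), Smad2KO (squares) and Smad3KO (triangles), each from 1 pair of arrays. The WT points fix the order, and the Smad3KO points lie nearer 0 than the WT points for all but Ccr6 among the rises.

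The falls were led by Nrn1 and Il2. Nrn1 encodes neuritin, a small membrane-anchored protein first known from neurons, and went from 3169 without TGF-b to 229 with it, 13.8-fold lower. Il2, the main T cell growth factor, went from 5067 to 539, 9.40-fold lower, in cultures that all held added IL-2. These were the only genes 8-fold or more lower. Serpinb6b, a protease inhibitor of the serpin family, went from 535 to 74.2, 7.21-fold lower. AI504432, a transcript known only by a database name, went from 3254 to 476, 6.84-fold lower. Kcna3, the voltage-gated potassium channel of effector T cells, went from 468 to 79.7, 5.87-fold lower.

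Several other large falls came from signalling and survival genes. Bcl2l11, which encodes the pro-apoptotic protein Bim, went from 1045 to 260, 4.02-fold lower. Sla, an adaptor that dampens T cell receptor signals, went from 3109 to 764, 4.07-fold lower. Slamf6, a homophilic receptor of lymphocytes, was 4.81-fold lower, Plek, a protein kinase C substrate, 4.77-fold and Atxn1, a transcriptional repressor, 4.59-fold. Cst7, a cathepsin inhibitor of cytotoxic cells, was 4.26-fold lower and Cth, an enzyme of cysteine synthesis, 4.76-fold. Ces5a, Chst15, Gbp8 and 5430427O19Rik were under the floor with TGF-b, at least 4.0 to 6.87-fold lower. Lypd6b, Ms4a4c, Slco4a1, Bspry, Utf1 and Pgap1, with the interferon-related genes described below, completed the 25. Ces5a and Utf1 were under 2-fold when the probe sets of a gene were averaged.

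The TGF-b receptors and Smads, listed with activin and bone morphogenetic protein (BMP) receptors, were higher or level. Of 13 bright members 6 were at least 2-fold higher and 0 lower, with a median log2 ratio of 0.53 against -0.01 over all bright genes. Among all bright genes 4.53% were higher and 2.89% lower, so 0 lower in 13 is near the share. The same shares apply to every list below, where a count of 0 lower in a short list is likewise near the share. Tgfbr1 went from 485 to 3915, while its partner, the type II receptor Tgfbr2, went from 1090 to 2226, 2.04-fold. Tgfbr2 was under 2-fold when its probe sets were averaged or when the control was the mean of the 3 arrays without TGF-b. The type II activin and BMP receptors Acvr2a and Bmpr2 were 4.46-fold and 5.71-fold higher and the type I activin receptor Acvr1b 2.24-fold. Smad3 went from 149 to 548, 3.67-fold higher. Smad2, at 1068 and 1031, and Smad4, at 1549 and 1611, were level. Acvr2a was under 2-fold with the higher floor.

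Of the 14 bright feedback genes and direct targets of TGF-b, 7 were at least 2-fold higher and 1 lower, with a median of 1.04. Pmepa1, which traps Smads and receptors, went from 170 to 1631. Ldlrad4, a related inhibitor, read 26.5 and 208, at least 6.39-fold. Spsb1, an adaptor that marks the type II receptor for degradation, was 5.91-fold higher and Klf10, a repressor induced early by TGF-b, 4.25-fold. The corepressors of Smads differed in size, with Skil 3.85-fold and Ski 2.73-fold higher. Smad7, the inhibitory Smad, went from 180 to 395, 2.19-fold. Id3, a helix-loop-helix inhibitor, went the other way, from 1340 to 475, 2.82-fold lower, while its relative Id1 went from 51.8 to 235, 4.55-fold higher, and Id2 stood at 0.67. Smad7, Ldlrad4 and Id1 were under 2-fold with the higher floor, and Spsb1 was when the values were prepared on all 8 arrays.

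The regulatory T cell list had 15 bright members, of which 7 were at least 2-fold higher and 2 lower, with a median of 0.66. Beside Foxp3, Nt5e and Socs2, these were Ikzf4, a repressor that partners Foxp3 (5.54-fold), the actin-capping protein Capg (5.98-fold), the orphan receptor Gpr83 (3.38-fold) and Il2ra, the high-affinity IL-2 receptor chain (1375 to 2960, 2.15-fold). The receptors Ctla4 at 0.42, Tnfrsf18 at 0.03 and Tnfrsf4 at 0.14 were level, and each was bright on the control array. Ebi3 and Gzmb were under the floor with TGF-b, at least 3.45-fold and at least 3.50-fold lower. With the higher floor Foxp3, Gpr83, Ebi3 and Gzmb were under 2-fold.

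No IL-6 is listed among the additions to the cultures. Of the 8 bright members of the Th17 list 5 were at least 2-fold higher and 0 lower, with a median of 1.72. These were Maf, Ccr6, the aryl hydrocarbon receptor Ahr (68.0 to 494, 7.27-fold), the nuclear receptor Rora (109 to 557, 5.11-fold) and the IL-6 receptor chain Il6ra (133 to 283, 2.12-fold). Il17a and Il21, the cytokines of these cells, were not bright on either array. Stat3 stood at 0.55, Irf4 at 0.44 and Batf at -0.22. Il6ra was under 2-fold when its probe sets were averaged and with the higher floor.

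The Th1 list split. Of 12 bright members 4 were at least 2-fold higher and 5 lower, with a median of -0.71. The chemokines Ccl3 (1219 to 308, 3.96-fold) and Ccl4 (1237 to 530, 2.33-fold) were lower, as were the IL-12 signalling genes Stat4 (435 to 175, 2.48-fold) and Il12rb1 (583 to 264, 2.21-fold). Eomes, a T-box factor of cytotoxic cells, read 127 and 5.84, at least 3.90-fold lower. On the higher side were Lta, which encodes lymphotoxin (1508 to 6821, 4.52-fold), the IL-18 receptor chain Il18r1 (4.59-fold), Xcl1 (3.48-fold) and Cxcr3 (2.98-fold). Xcl1 was under 2-fold against the mean of the 3 control arrays, and Xcl1, Cxcr3, Il18r1, Stat4 and Eomes were with the higher floor. Ifng read 65.3 and 35.1, a log2 ratio of -0.89, and Tbx21, its main activator, was not bright, at 55.7 and 32.8. Of the Th2 list 6 members were bright, Ccr8 and Ccr4 were at least 2-fold higher and 0 lower, and Gata3 stood at 0.50.

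In the IL-2 pathway Il2 itself was lower, whereas 10 of the 15 bright members were at least 2-fold higher, with a median of 1.11. The receptor chains Il2ra and Il2rb (637 to 1823, 2.86-fold) were higher. The signal transducers Stat5a (956 to 2003, 2.10-fold) and Stat5b (699 to 1574, 2.25-fold) were higher too. Stat5a was under 2-fold with averaged probe sets, with preparation on all 8 arrays and against the mean of the 3 control arrays. Of the feedback inhibitors, Cish went from 949 to 3319 (3.50-fold), Socs1 from 88.7 to 393 (4.43-fold), Socs3 from 72.1 to 199 (2.76-fold) and Socs2 as above. Bcl2, a survival gene, was 2.44-fold higher and Osm, a cytokine of the IL-6 family, 2.16-fold. With the higher floor Socs1, Socs3 and Osm were under 2-fold. The kinases Jak1 at 0.04, Jak3 at 0.49, Pim1 at 0.18 and Pim2 at 0.11 were under 2-fold.

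Chemokine and homing receptors were mostly higher. Of 10 bright members 7 were at least 2-fold higher and 1 lower, with a median of 1.50. Beside Ccr8 and Ccr6, Cxcr4 (26.4 to 123, at least 3.79-fold), the egress receptor S1pr1 (68.4 to 210, 3.06-fold), Cxcr3, Ccr4 (2.68-fold) and Cxcr5 (2.27-fold) were higher. The signals of the last 5 were low, 26.4 to 68.4 without TGF-b, and with the higher floor S1pr1, Cxcr3, Cxcr4, Cxcr5 and Ccr4 were under 2-fold. Gpr183, an oxysterol receptor that guides follicular positioning, went from 727 to 304, 2.39-fold lower. Ccr7, the lymph node homing receptor, stood at 0.48. Among naive and quiescence genes 3 of 13 were at least 2-fold higher and 0 lower, with a median of 0.48: Klf2, which maintains quiescence and drives S1pr1 (195 to 1025, 5.26-fold), Foxo1 (505 to 1287, 2.55-fold) and S1pr1.

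Cytotoxic effector genes went both ways. Of 9 bright members 4 were at least 2-fold higher and 3 lower, with a median of 0.34, which was -0.62 with the floor at the 25th percentile. The higher members were Ctsw, Ctla2a, Ctla2b and the granule membrane gene Nkg7 (88.4 to 302, 3.42-fold). The lower ones were Gzmb, which encodes granzyme B, and the serpins Serpinb6b and Serpinb9 (303 to 76.0, 3.99-fold). Serpinb9 is known as the inhibitor of granzyme B, and both read lower. Gzmb, Serpinb9 and Nkg7 were under 2-fold with the higher floor.

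Interferon-stimulated genes held the most 2-fold lower members of the 26 gene lists, and also the most bright members. Type I interferon is known to induce antiviral genes through a repeated GAAA element in their promoters. Of 22 bright members 12 were at least 2-fold lower and 2 higher, with a median of -1.07. Ifitm2, a membrane protein that blocks virus entry, went from 2125 to 359, 5.92-fold lower, and its relatives Ifitm3 (195 to 60.9) and Ifitm1 (83.8 to 25.9) were 3.20-fold and at least 2.58-fold lower. Ifi209, of the Ifi200 family, went from 607 to 117, 5.18-fold lower, and Mndal, of the same family, from 1523 to 623, 2.45-fold. The RNA sensor Ifih1 went from 414 to 83.4, 4.96-fold lower. The exonuclease Isg20 was 3.05-fold lower, the nucleic acid sensor Zbp1 at least 2.68-fold, and the guanylate-binding GTPases Gbp7, Gbp2 and Gbp6 2.61-fold, 2.27-fold and 2.08-fold. Oas3 was at least 2.14-fold lower. Family members resemble each other, so their probe sets may share signal, and this was not tested.

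The group was not uniform. Ifit3 read 9.24 and 101, at least 3.11-fold higher, and Usp18 56.5 and 113, 2.00-fold higher. Ifit2 at -0.23, Bst2 at -0.06, Stat2 at 0.27 and Irf9 at 0.69 were under 2-fold. A further 12 listed members were not bright, among them Ifit1, Mx1, Irf7 and Rsad2. With the higher floor 8 of the 12 lower genes were under 2-fold, namely Gbp6, Gbp7, Ifih1, Ifitm1, Ifitm3, Isg20, Oas3 and Zbp1, and so were Ifit3 and Usp18. Ifitm1, Zbp1, Gbp6 and Oas3 were under 2-fold when the values were prepared on all 8 arrays, and Gbp6 and Oas3 when prepared on the 2 WT arrays. Gbp6 and Gbp7 were under 2-fold when probe sets were averaged, as were Oas3 and Usp18 against the mean of the 3 control arrays. Of genes of MHC class I and antigen processing, which interferons also raise, 0 of 10 bright members were at 2-fold in either direction, with a median of 0.23. Over all bright genes 4.53% were higher and 2.89% lower, so a count of 0 in 10 does not set this list apart.

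The promoters of the 12 lower interferon-stimulated genes were read for the letters of that element, GAAANNGAAA, on both strands. These genes were picked because they were lower, so their common direction is no result. Windows of 250 bases before to 50 after the start came from the RefSeq table of build GRCm38.p6, in the direction of the gene. Of the 12 genes 10 had a window and 7 of these (70.0%) held the letters. The share was 5.85% among 188 other genes at least 2-fold lower, 3.93% among 331 genes at least 2-fold higher, 3.65% among 7585 bright genes and 3.44% of all 32851 windows. The list was chosen for interferon responses, so a high share is no result of the arrays. The stretches around the matches of 5 genes that end before the start site follow, with the matched letters in capitals, read 5′ to 3′ along the gene. The remaining 2 genes, Ifih1 and Ifitm3, held the letters across or after the start.

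Gbp2, chr3:142620574-142620643, plus strand: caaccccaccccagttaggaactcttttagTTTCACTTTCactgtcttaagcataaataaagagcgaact
Gbp7, chr3:142530253-142530322, plus strand: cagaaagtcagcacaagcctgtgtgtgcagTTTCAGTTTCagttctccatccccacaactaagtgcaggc
Ifitm2, chr7:140955968-140956037, minus strand: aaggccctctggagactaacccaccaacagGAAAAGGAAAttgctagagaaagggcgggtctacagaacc
Mndal, chr1:173880188-173880253, minus strand: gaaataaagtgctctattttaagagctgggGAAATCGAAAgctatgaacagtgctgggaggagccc
Oas3, chr5:120777695-120777764, minus strand: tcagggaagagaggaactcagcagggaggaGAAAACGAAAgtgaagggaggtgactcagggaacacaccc

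In Gbp2 and Gbp7 the element lies on the opposite strand, 50 to 59 and 44 to 53 bases before the start. In Ifitm2, Mndal and Oas3 it lies on the gene's strand, 37 to 46, 27 to 36 and 66 to 75 bases before it, and a further Mndal window held another match. On the higher side the letters of a STAT site, TTCNNNGAA, which are their own reverse complement, were in the windows of 47 of 331 genes (14.2%). The share was 7.07% among 198 genes at least 2-fold lower and 8.29% among 7585 bright genes. Of the 7 higher IL-2 pathway genes with a window, Cish and Socs3 held them. The Socs3 match, 146 to 154 bases before the start, is shown as an example of these letters.

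Socs3, chr11:117969482-117969550, minus strand: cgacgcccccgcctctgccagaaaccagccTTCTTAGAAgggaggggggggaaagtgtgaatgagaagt

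The letters of a Smad palindrome, GTCTAGAC, were in 1 of 331 windows of higher genes (0.302%), 0 of 198 of lower genes and 0.356% of those of bright genes. A match is a description of letters, and no match says only that they are not in this window.

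Activation genes of the T cell receptor were mostly level, with exceptions at the cytokines. Of 18 bright members 1 was at least 2-fold higher and 4 lower, with a median of -0.21. Irf8, an interferon regulatory factor, was the exception on the higher side, from 911 to 6684, 7.33-fold. The cytokines Csf2 (164 to 61.6, 2.67-fold) and Il3 (195 to 84.7, 2.30-fold), the AP-1 subunit Fos (388 to 172, 2.26-fold) and the activation marker Cd69 (3752 to 1816, 2.07-fold) were lower. Cd69 was under 2-fold against the mean of the 3 control arrays, and Csf2, Il3 and Fos with the higher floor. Nr4a1 at 0.05, Egr2 at 0.06 and Myc at -0.18 were level. Among phosphatases that switch off ERK and related kinases, Dusp4 (528 to 1584, 3.00-fold) and Dusp5 (697 to 1642, 2.36-fold) were higher and Dusp6 (2654 to 1009, 2.63-fold) and Dusp16 (225 to 85.4, 2.64-fold) lower, in a list of 11 with a median of -0.36. Dusp16 was under 2-fold with the higher floor.

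Surface receptors that tune activation were mostly under 2-fold in either direction. Of 19 bright costimulatory and inhibitory receptors and ligands 0 were at least 2-fold higher and 4 lower, with a median of -0.31 and a highest member at 0.93. Tnfsf11, which encodes RANKL, went from 2266 to 631, 3.59-fold lower, Tnfsf8, the CD30 ligand, from 482 to 178, 2.71-fold, and the inhibitory receptor Btla from 4929 to 2152, 2.29-fold. Cd200, from 4363 to 2096, was 2.08-fold lower and under 2-fold against the mean of the 3 control arrays. Of 7 bright SLAM family and SAP genes 0 were at least 2-fold higher and 2 lower, with a median of -0.74. The shares over all bright genes were 4.53% higher and 2.89% lower, so 0 higher in 7 is near the share. Slamf6 went from 1407 to 292 and Cd84 from 774 to 380, the latter under 2-fold against the mean of the 3 control arrays. Slamf1 stood at -0.76 and Ly9 at -0.74, while the adaptor Sh2d1a stood at 0.87.

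Of the 19 bright cytoskeletal, annexin and S100 genes 11 were at least 2-fold higher and 0 lower, with a median of 1.24. Vim, the intermediate filament vimentin, went from 614 to 4076, 6.64-fold, and Lgals1, the galectin known to bind T cell glycoproteins, from 1182 to 5445, 4.61-fold. Lgals3 (56.8 to 406) was 7.14-fold higher and Capg 5.98-fold, from 1059 to 6326. S100a13 was 2.95-fold, Crip1 2.48-fold and Ahnak 2.36-fold higher. The actins Actb at 0.42 and Actg1 at 0.13, among the brightest signals of the arrays, were level. Ahnak, Anxa2, Anxa4, Capg and Lmna were under 2-fold when probe sets were averaged, so the median of the list was then 0.81, and with the higher floor Ahnak, Anxa2, Anxa4, Lgals3 and Lmna were. Among 10 bright integrin and adhesion genes only Itgb2 was at 2-fold (2506 to 5196, 2.07-fold), with a median of 0.38. Over all bright genes 4.53% were at least 2-fold higher. Of the adenosine genes, Nt5e and the nucleoside transporter Slc29a1 (1287 to 2595, 2.02-fold) were higher, in 5 bright members. Slc29a1 was under 2-fold when the arrays were scaled to a common median of bright probe sets.

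Genes of growth and housekeeping programmes were mostly under 2-fold in either direction. In the lists of DNA replication (19 bright), mitosis (17), Myc and ribosome biogenesis (15), cholesterol synthesis (14) and heat shock genes (9), 0 members were at 2-fold in either direction. Their medians were -0.06, -0.26, -0.17, -0.03 and 0.20. Over all bright genes 4.53% were higher and 2.89% lower, so a count of 0 in any 1 of these small lists is near that share. Mitosis genes lay to the lower side, from -0.83 for Aurkb, a kinase of chromosome segregation, to 0.06 for Ccnb2. Among replication genes Mcm5 at 0.03, Mcm6 at 0.03 and Pcna at 0.24 were level. In glycolysis and hypoxia genes 16 of 17 were under 2-fold, with a median of -0.22, and Egln3 was the exception. The Cdk inhibitors Cdkn1a at 0.47 and Cdkn1b at 0.85, which TGF-b is known to raise in other cells, were under 2-fold.

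**Figure D3:**
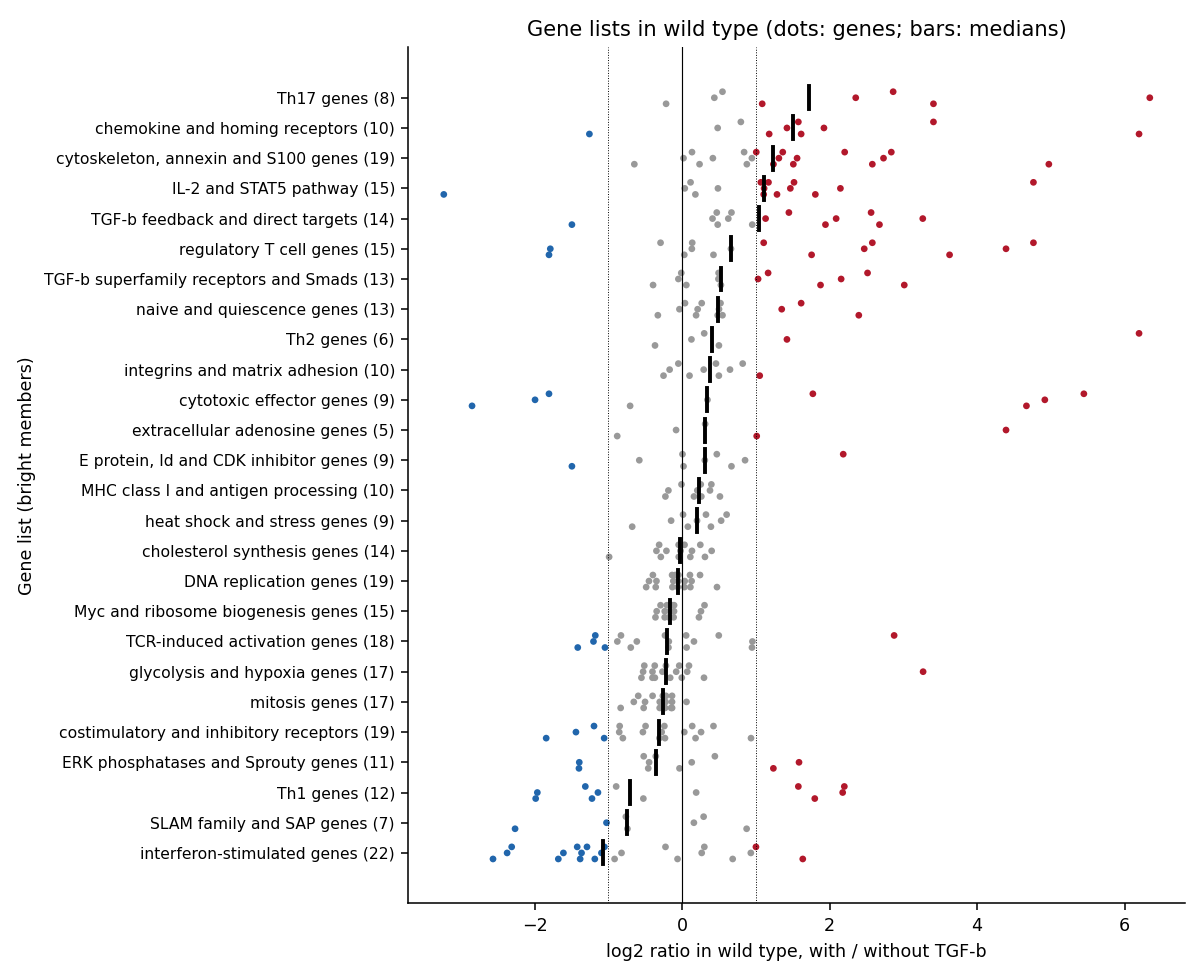
Log2 ratio in WT (horizontal) of the bright members of 26 gene lists (vertical, number of bright members in brackets), 1 dot per gene, red at 2-fold higher, blue at 2-fold lower, with a black bar at each list's median. Medians run from -1.07 for interferon-stimulated genes to 1.72 for Th17 genes, and the lists of growth genes stay between the dotted 2-fold lines.

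Probe sets of the same gene read different parts of its transcript on the same array, so their agreement describes the array and is no replicate. A further bright probe set existed for 151 of the 417 higher genes and 61 of the 266 lower ones, and the other 266 and 205 genes rest on 1 bright probe set each. Of 270 further probe sets of higher genes, 258 (95.6%) had the same sign and 191 (70.7%) were at 2-fold the same way. Of 83 further probe sets of lower genes, 81 (97.6%) had the same sign and 50 (60.2%) were at 2-fold. In 4241 genes called neither higher nor lower, 64.6% of 7136 further probe sets had the sign of the chosen one. The size of the ratio mattered: at 4-fold or more, 67 of 73 further probe sets of higher genes and 16 of 16 of lower genes were at 2-fold the same way, against 124 of 197 and 34 of 67 at 2 to 4-fold. Over all 7489 further probe sets the correlation with the chosen one was 0.655. They share RNA and array, so it is given as a description.

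Agreement was close for many leading genes. Of 82 called genes with 3 or more bright probe sets, 38 had all of them at 2-fold the same way. The 5 bright probe sets of Maf stood between 3.11 and 6.34, and they read 2.28 to 14.4 without TGF-b. The 3 of Aqp3 stood between 4.50 and 4.79 and the 4 of Kctd14 between 3.48 and 4.37. All 6 probe sets of Igfbp4, which encodes a binding protein of insulin-like growth factors, stood between 2.38 and 3.92. Tgfbr1 ran from 2.23 to 3.01, Vim from 2.23 to 2.73, Rora from 1.84 to 2.91 and the 7 of Cpd, a carboxypeptidase, from 1.77 to 2.16. On the lower side Plek ran from -2.34 to -2.05 and Slamf6 from -2.27 to -1.80. Foxp3, Il2, Ctsw, Ccr8 and Nrn1 had 1 bright probe set each. Of the 135 genes checked, 117 were still at 2-fold when all probe sets, dim ones included, were averaged. Those that were not included Acvr1b, Cd8a, Dusp16, Foxo1, Gbp7, Gpr183 and Ldlrad4, beside others given above.

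Among the genes at 2-fold, only Sdc3, a cell surface proteoglycan, and Afp, alpha-fetoprotein, had a further bright probe set at 2-fold the other way. The chosen Sdc3 probe set went from 50.6 to 145 and another from 135 to 48.8. For Afp, 3 probe sets were lower (log2 ratios -1.21, -0.99 and -2.0) and another read 32.8 and 76.2. Capg had another probe set of lower signal, at 134 and 68.8, against its log2 ratio of 2.58, and this gene was singled out after its values were seen. In all, 14 further probe sets of genes at 2-fold had the opposite sign. In genes called neither way, 85 of 7136 further probe sets were at 2-fold with the opposite sign to the chosen one. In the other direction, 123 genes called neither way had a further bright probe set at least 2-fold higher and 162 one at least 2-fold lower.

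**Figure D4:**
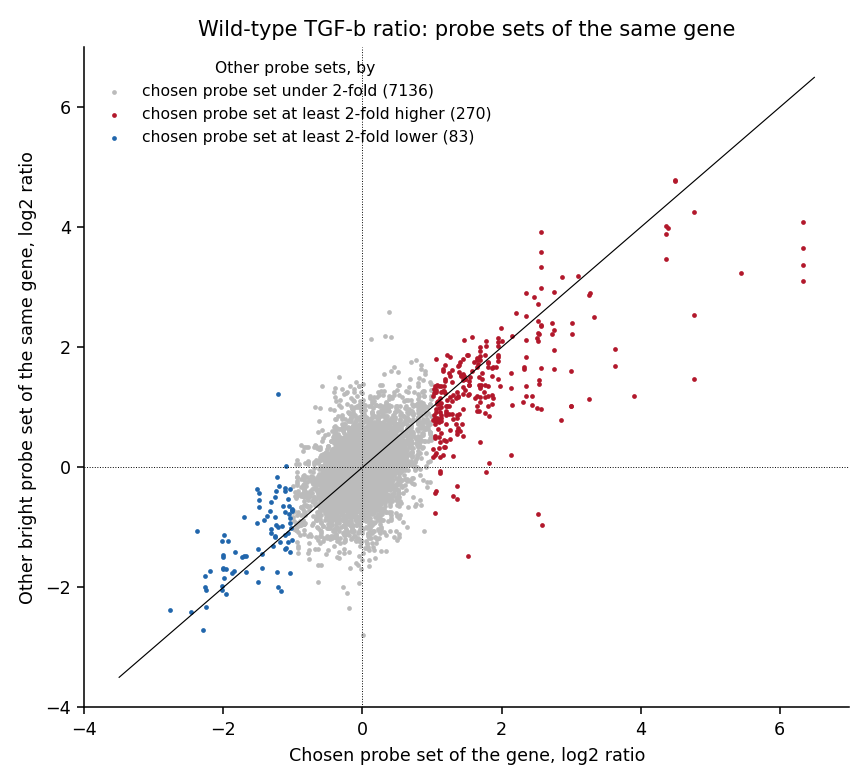
Log2 ratio in WT of the chosen probe set of a gene (horizontal) and of each further bright probe set of that gene (vertical), 7489 points, with the diagonal as a line. Red points (270) belong to genes at least 2-fold higher, blue points (83) to genes at least 2-fold lower, and 12 red and 2 blue points lie on the far side of 0.

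The Smad2KO and Smad3KO pairs used other arrays, so they measure the WT genes again in cells labelled as lacking a Smad. In Smad2KO 266 of 9057 bright genes (2.94%) were at least 2-fold higher and 159 (1.76%) lower. In Smad3KO the numbers were 170 (1.9%) and 75 (0.839%) of 8937. Of the 417 WT rises, 375 (89.9%) had the same sign in Smad2KO and 360 (86.3%) in Smad3KO. Over all 9208 genes bright in WT, called or not, 6598 and 5850 had the sign of WT. At 2-fold, 214 were higher in Smad2KO, which is 51.3% of the WT rises and 80.5% of the Smad2KO rises. In Smad3KO 114 were, 27.3% of the WT rises and 67.1% of the Smad3KO rises. Of the 266 WT falls, 222 (83.5%) and 196 (73.7%) had the same sign. At 2-fold, 85 were lower in Smad2KO (32.0% of WT falls, 53.5% of Smad2KO falls) and 49 in Smad3KO (18.4% and 65.3%). At 8-fold or more in WT, 24 of 25 rises were at 2-fold in Smad2KO and 21 in Smad3KO.

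Genes picked for size in WT tend to look smaller elsewhere, so genes were also picked in a mutant and read in the remaining genotypes. The 266 genes at least 2-fold higher in Smad2KO had a median log2 ratio of 1.55 in WT and 0.81 in Smad3KO, and 223 of them were larger in WT. The 170 picked in Smad3KO had 1.49 in WT and 1.16 in Smad2KO, with 122 larger in WT. On the lower side the 159 picked in Smad2KO stood at -1.10 in WT and -0.56 in Smad3KO, and the 75 picked in Smad3KO at -1.36 in WT and -1.11 in Smad2KO. The spread of WT ratios was also wider, with a robust SD of 0.33 against 0.26 in Smad2KO and 0.20 in Smad3KO. The genotypes have 1 pair of arrays each, so these medians describe the pairs and are no test of genotype.

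Individual WT genes differed in how they read on the Smad3KO arrays. Nt5e, at 4.39 in WT, stood at 4.64 in Smad2KO and 4.11 in Smad3KO, and Ccr6, at 3.41, at 2.73 and 3.61. Ahr (2.86, 2.76 and 2.45) and Vim (2.73, 2.33 and 2.38) had like ratios on the 3 pairs. Emp1 stood at 4.97, 4.35 and 0.78, Ctla2b at 4.67, 4.01 and 1.62 and Foxp3 at 3.63, 3.15 and 1.62. Except for Emp1 in Smad2KO, these ratios are lower bounds, because the control signal was under the floor. Eomes and Gzmb were lower in all 3, at -1.96, -2.72 and -2.54 and at -1.81, -2.69 and -2.56. With TGF-b Eomes was under the floor in all 3 and Gzmb in WT and Smad2KO, so there the falls are at least this large. Without TGF-b Eomes read 127, 215 and 189 and Gzmb 114, 210 and 206. A 2-fold higher signal in all 3 genotypes was read for 93 genes and a 2-fold lower one for 41. Of the WT rises 23 had the same sign in neither mutant, and of the WT falls 30. These include genes under the floor on all mutant arrays, whose floored ratio of 0 has no sign. Baiap3, for instance, read 4.20 and 15.5 in Smad2KO and 5.23 and 23.9 in Smad3KO. Such genes cannot be read in the mutants and show no loss of a response.

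**Figure D5:**
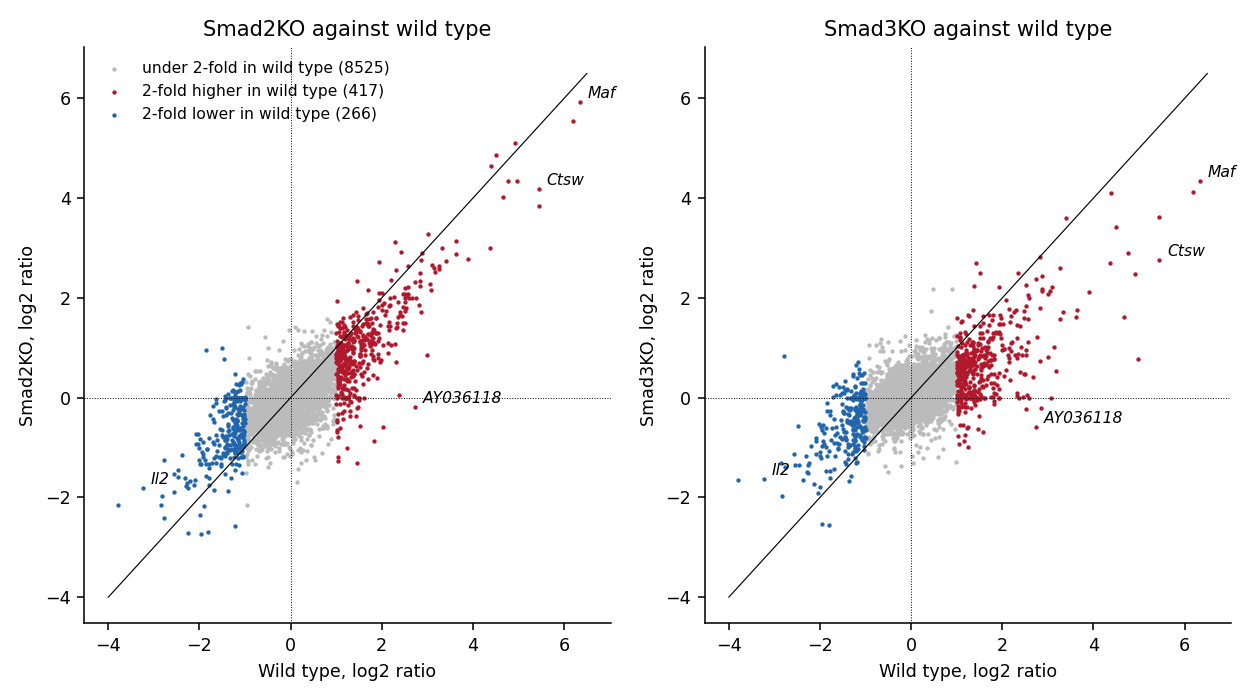
Log2 ratio with over without TGF-b in WT (horizontal) and in Smad2KO (left) or Smad3KO (right, vertical) for the 9208 genes bright in WT, with the diagonal as a line. Red genes were at least 2-fold higher and blue genes at least 2-fold lower in WT, and AY036118 is high in WT and near or below 0 in both mutants.

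How far the WT response differed from the average of both mutant responses was fitted with limma on 6 arrays with genotype as a block, 1 residual degree of freedom and Benjamini-Hochberg adjustment over 9426 genes. That residual is the difference between the Smad2KO and Smad3KO responses, so its errors and p-values hold no spread between WT cultures. At an adjusted p of 0.05, 1 gene (0.0106%) was called higher in WT and 1 (0.0106%) lower, while 700 had an unadjusted p under 0.05. Il2 was lower by more in WT: its log2 ratio was -3.23 in WT, -1.82 in Smad2KO and -1.62 in Smad3KO. The difference was -1.51 (SE 0.133, adjusted p = 0.0486 by limma). Its controls read 5067, 5537 and 5329, and with TGF-b it read 539, 1570.4 and 1729. The WT value with TGF-b was thus the one that stood apart. The call was lost in 5 of 8 alternatives, with limma adjusted p from 0.00191 to 0.703.

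The gene called higher was AY036118, also known only by a database name, at 3.13 (SE 0.198, adjusted p = 0.0110 by limma). It read 233 without and 1549 with TGF-b in WT, 1883 and 1653 in Smad2KO and 2060 and 1363 in Smad3KO. The WT array without TGF-b alone was low. The same array read highest for 18S rRNA among the 6, and the part of rRNA in this value was not tested. The limma adjusted p ranged from 4.83e-05 to 0.703 over the 8 alternatives, and 4 of them lost the call. The next genes were AI504432 (-1.46) and Sla (-1.40), both with an adjusted p of 0.0522 by limma. The WT control array stood 2-fold or more off the mutant controls for 15 of the 417 rises and 36 of the 266 falls. Of these, 13 rises and 35 falls had control signals under 130.1. The WT array with TGF-b stood 2-fold or more off the mutant arrays with TGF-b for 84 of the rises and 36 of the falls. Real differences between Smad2KO and Smad3KO enter the residual of this fit and enlarge it.

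Some called genes lay next to each other in the genome. The RefSeq order held 4808 adjacent pairs of bright genes. Both were at least 2-fold higher in 29 pairs and both at least 2-fold lower in 19, and they went opposite ways in 11. More often the neighbour was called neither way, in 359 pairs with a higher gene and 189 with a lower gene. Over all bright genes 4.53% were higher and 2.89% lower. Whether neighbours went the same way more often than these shares would give was not tested. The 10 pairs with the largest smaller ratio included relatives and unrelated neighbours. Serpinb6b and Serpinb9 (-2.85 and -1.99) and the ion channels Mcoln3 and Mcoln2 (-1.73 and -1.69) are relatives. Sla lies beside Tg, which encodes thyroglobulin and read 122 and 10.9 (-2.02 and -1.91). On the higher side Mapkapk3, a stress kinase (831 to 4942), Cish and Hemk1 (247 to 1413) stand in a row, at 2.57, 1.81 and 2.52. Foxp3 followed Ppp1r3f, which read 21.4 and 100.3, and Ikzf4 lay beside Suox (167 to 474). Cd72 (2.83) lay beside Sit1 (1.58), Ncmap beside Rcan3 (2.37 and 1.57) and the protease gene Furin, which matures TGF-b itself, beside Fes (1.52 and 1.70).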

How the data were processed

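The authors deposited 1 table of probe set intensities on a linear scale, 1 column per array, made with GCOS 1.4 per the submitters' processing notes. The summary algorithm was not given in the sources used here. Deposited medians on the WT arrays were 39.2 and 27.3, so each of the 6 WT, Smad2KO and Smad3KO arrays was scaled to a common 2% trimmed mean. The table lists 45101 probe sets. Among them were 64 controls, 34945 with a single gene symbol, 932 with several and 9160 with none here, and only those with 1 symbol, standing for 18193 genes, were read. Entrez identifiers of 34741 matched the RefSeq table of GRCm38.p6, which changed 0 symbols and gave gene order and promoters.

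A WT difference is a log2 ratio of 2 arrays after flooring. The WT response minus the mean mutant response was fitted with limma 3.58.1 in R 4.3.3 (lmFit, then eBayes with trend and robust settings) and first tested on simulated data. Python 3.11.15, numpy 2.4.6, pandas 2.3.3 and matplotlib 3.10.9 did the rest. Lists are described by counts and medians. The text names the 25 largest rises and falls, list members, genes whose probe sets all agree or clash, neighbouring pairs and genes called in the limma fit. The members, lists and this rule were chosen with earlier results of these data known. Alternatives were other scalings, floors, probe set choices, filters and limma settings. A filter on both WT arrays and a control averaged over 3 genotypes were added after seeing the data. The number of arrays limits the precision.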

Additional observations from a re-analysis of the deposited data

Results flagged for a closer look

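The response in WT differed from the mean of the Smad2KO and Smad3KO responses for 2 genes in the limma fit. Il2, the T cell growth factor, differed by -1.51 on the log2 scale, with a lower signal after TGF-b in 3 of 3 genotypes. The AY036118 transcript differed by 3.13, with a higher signal after TGF-b in WT and a lower one in both mutants. In AY036118 the WT array without TGF-b was the low one, at 233 against 1883 and 2060 on the mutant control arrays.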

How the results depend on the processing

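Counts moved most with the floor. With a floor at the 25th percentile of signals 1693 genes reached a 2-fold rise and 1617 a 2-fold fall in WT. Then 407 of the rises were also at 2-fold in Smad2KO and 346 in Smad3KO, as were 361 and 255 of the falls. Of further bright probe sets, 72.3% had the same sign for rises and 64.3% for falls. With a floor at the 75th percentile there were 152 and 69 genes. Of these, 87 and 43 rises and 26 and 16 falls were also at 2-fold in the mutants, and 100% of further probe sets had the same sign in both directions. Averaging the probe sets of a gene left 173 falls, and asking for 2 times the floor on both WT arrays left 227 rises and 124 falls.

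In the limma fit of WT minus the mutants, 3 genes were called higher and 7 lower with the floor at the 25th percentile. With the floor at the 75th percentile, with averaged probe sets, without a filter on dim probe sets and without the trend and robust settings, 0 were called in either direction, with 402, 646, 837 and 638 genes at an unadjusted p under 0.05. Quantile normalization gave 4 lower, and scaling to a common median of bright probe sets 0 lower with 710 genes unadjusted.

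List medians kept their sign with 1 exception among those that moved by more than 0.33. With the floor at the 25th percentile, cytotoxic effector genes went to -0.62, Th17 genes to 0.82 and interferon-stimulated genes to -0.66. With the floor at the 75th percentile they were 1.03 for receptors and Smads, -1.14 for Th1, 1.16 for Th17, 0.95 for chemokine receptors, 1.90 for cytotoxic, 1.01 for adenosine and 1.11 for regulatory T cell genes. With averaged probe sets they were 1.18 for Th17, 0.81 for cytoskeleton and 0.66 for adenosine genes, and with the control as the mean of 3 arrays 2.15 for Th17. Of the 135 named genes at 2-fold that were checked, 67 were at 2-fold under all 9 settings, 79 with the higher floor and 117 with averaged probe sets, and 0 reversed. No paired analysis was possible because the labels number no replicates and each group has 1 array, and the block in the limma fit is the genotype. Leaving out a replicate could not be done for the same reason. The cause of these differences was not tested.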

Other observations

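Among the other neighbouring pairs that went the same way were genes of shared function, singled out after their values were seen. The inflammatory caspases Casp1 and Casp4 were both lower, with log2 ratios of -1.22 and -1.78. The Tec family kinases Txk and Tec, which carry T cell receptor signals, were both higher, at 1.13 and 1.49. The IL-6 family cytokines Osm and Lif were higher at 1.11 and 2.15, while the haematopoietic cytokines Csf2 and Il3 were lower at -1.42 and -1.20.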
